A study of Mus musculus with 10 samples.

Results

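The CCN genes encode secreted proteins of the extracellular matrix, and of the 5 members described here only Ccn3 differed between haematopoietic stem cells (HSCs) with an induced Sox17 transgene and wild-type HSCs by more than the spread between arrays. Members were all probe sets whose annotation names Ccn1, Ccn2, Ccn3, Ccn4 or Ccn5 as the only gene. That gave 5 probe sets, 1 per gene, of 21789 one-gene probe sets on the array. The family was chosen because Ccn3 stood high among the differences between the same groups, so the values of its members are given as a description and no p-value is given for them. The sixth family gene, Ccn6, is no member and is given once for completeness.

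Both groups were bone marrow HSCs of 8-week-old mice, sorted as CD150+CD48-Lineage-Sca1+cKit+, 10000 cells per aliquot, after 5 days on drinking water with 2 mg/ml doxycycline. The 5 transgenic samples came from mice carrying both (tetO)7CMVSox17-IRES-NucEGFP, a doxycycline-responsive Sox17 gene linked to a nuclear green fluorescent protein, and Gt(ROSA)26Sortm1(rtTA*M2)Jae, the doxycycline-dependent activator. The 5 wild-type samples came from littermates given the same drug. The activator sits in the broadly active ROSA26 locus, so the labels do not limit the transgene to HSCs. Each sample was hybridised to 1 Affymetrix Mouse Gene ST 1.0 array after amplification of its RNA, and the values are log2 intensities from robust multi-array average (RMA) processing. The labels call the aliquots independent but tie none to an animal, so p-values reflect only how these samples vary, part of which may be technical. The study asks what Sox17 changes in adult HSCs.

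CCN proteins are matricellular, which means that they sit in the matrix without building it and tune how cells read adhesion and growth factor signals. They are mosaics of an IGF-binding-protein-like module, a von Willebrand type C module, a thrombospondin repeat and a C-terminal cystine knot, the last of which Ccn5 lacks. They act mainly through integrins and heparan sulphate proteoglycans, and they bind growth factors such as TGF-beta, BMP and VEGF. Ccn1 and Ccn2 are textbook targets of the coactivators YAP and TAZ, which reach DNA through TEAD factors. CCN3 binds the receptor Notch1, and human cord blood stem and progenitor cells depend on it.

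The promoter stretch of a member is shown here because the YAP and TAZ pathway is examined further on. RefSeq's promoter table for GRCm38.p6 matched 1 of the 5 members, Ccn1. Its 250 bases before the transcription start lie at chr3:145649986-145650235 on the minus strand, and the capitals mark, 5′ to 3′, the TEAD letters CATTCC and the TATA letters TATAAA.
Ccn1 promoter: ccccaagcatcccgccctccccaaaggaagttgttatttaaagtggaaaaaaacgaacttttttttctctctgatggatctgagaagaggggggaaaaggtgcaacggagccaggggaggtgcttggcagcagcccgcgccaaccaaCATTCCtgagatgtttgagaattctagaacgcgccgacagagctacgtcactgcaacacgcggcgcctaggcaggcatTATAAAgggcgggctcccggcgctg
The TEAD letters lie at positions -103 to -98 from the start and the TATA letters at -25 to -20, and the motifs do not overlap. Counting either strand, 12.6% of the 32851 promoter stretches of the same length hold the TEAD letters and 12.4% the TATA letters. The SOX letters ACAAT, searched as ACAAT or ATTGT, are not in this window, and 27.7% of all stretches hold them.

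Before the members, the arrays themselves need describing. They fell into 2 sets that did not follow the groups, parted by the leading principal component after each group mean was removed: transgenic arrays 1, 2 and 3 with wild-type arrays 1 and 2 (set A), and transgenic arrays 4 and 5 with wild-type arrays 3, 4 and 5 (set B). Arrays of 1 set correlated at 0.973 on average and arrays of different sets at 0.958. Transgenic array 4 alone had low Xist (4.32, against 10.8 or more on the other arrays) and high Eif2s3y (9.23). The Sox17 probe set read 4.37 ± 0.13 in transgenic HSCs and 4.21 ± 0.13 in wild-type HSCs (SD, n = 5 each; limma adjusted p = 0.855), below the background level defined next on all 10 arrays, so the direction of each difference rests on the labels. Of 10 measured genes of the gate and of stem cell identity, 9 lay above background on all 10 arrays. The tenth, Cd48, whose protein the gate selects against, was above background on 6 arrays and read 6.29 ± 0.53 in transgenic HSCs and 4.96 ± 0.51 in wild-type HSCs (SD, n = 5 each; 1.34, SE 0.29, limma adjusted p = 0.145). Kit, whose protein the gate selects for, read 9.43 ± 0.22 in transgenic HSCs and 9.90 ± 0.17 in wild-type HSCs (-0.47, SE 0.12, limma adjusted p = 0.248). The identity gene Procr was higher without overlap, at 9.21 ± 0.37 in transgenic HSCs and 8.12 ± 0.60 in wild-type HSCs (1.08, SE 0.27, limma adjusted p = 0.247). Of the 10 genes 6 had a positive difference, against 46.3% of all tested probe sets. As an empirical background, the 1193 probe sets of olfactory and vomeronasal receptors, which blood cells are not known to use, had medians of 3.32 to 3.46 and 95th percentiles of 5.19 to 5.39 on the 10 arrays. A value above that 95th percentile on its own array is called above background. Probes differ in affinity, so this marks where low readings lie and does not rank genes.

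Ccn3 was high on all transgenic arrays and near background on most wild-type arrays. It read 8.31, 7.92, 8.63, 7.02 and 7.35 on transgenic arrays 1 to 5, against 4.91, 5.21, 4.66, 5.84 and 4.98 on wild-type arrays 1 to 5. All 5 transgenic arrays were above background and 1 of the 5 wild-type arrays, number 4, was. The groups did not overlap: the lowest transgenic value lay 1.18 log2 units above the highest wild-type value. Means were 7.84 ± 0.66 for transgenic and 5.12 ± 0.45 for wild-type HSCs (SD, n = 5 each), a log2 difference of 2.72 (SE 0.31), or 6.60-fold. Since wild-type arrays 1, 2, 3 and 5 read at background and RMA compresses low values, the fold may be understated.

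Ccn3 also varied more than most probe sets within each group. The median within-group SD over the 23410 tested probe sets was 0.19 and the 95th percentile 0.49; that of Ccn3 was 0.66 in transgenic and 0.45 in wild-type HSCs. Among the transgenic arrays the 3 of set A were all higher than the 2 of set B, with means of 8.28 and 7.18, while the wild-type means were 5.06 in set A and 5.16 in set B. The log2 difference was thus 3.22 within set A and 2.02 within set B. Whether the sets differ in it was not tested. Without transgenic array 4, the lowest transgenic array and the one with high Eif2s3y, it was 2.93. In these bulk samples more cells with Ccn3 and more Ccn3 RNA per cell cannot be told apart.

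**Figure D1:**
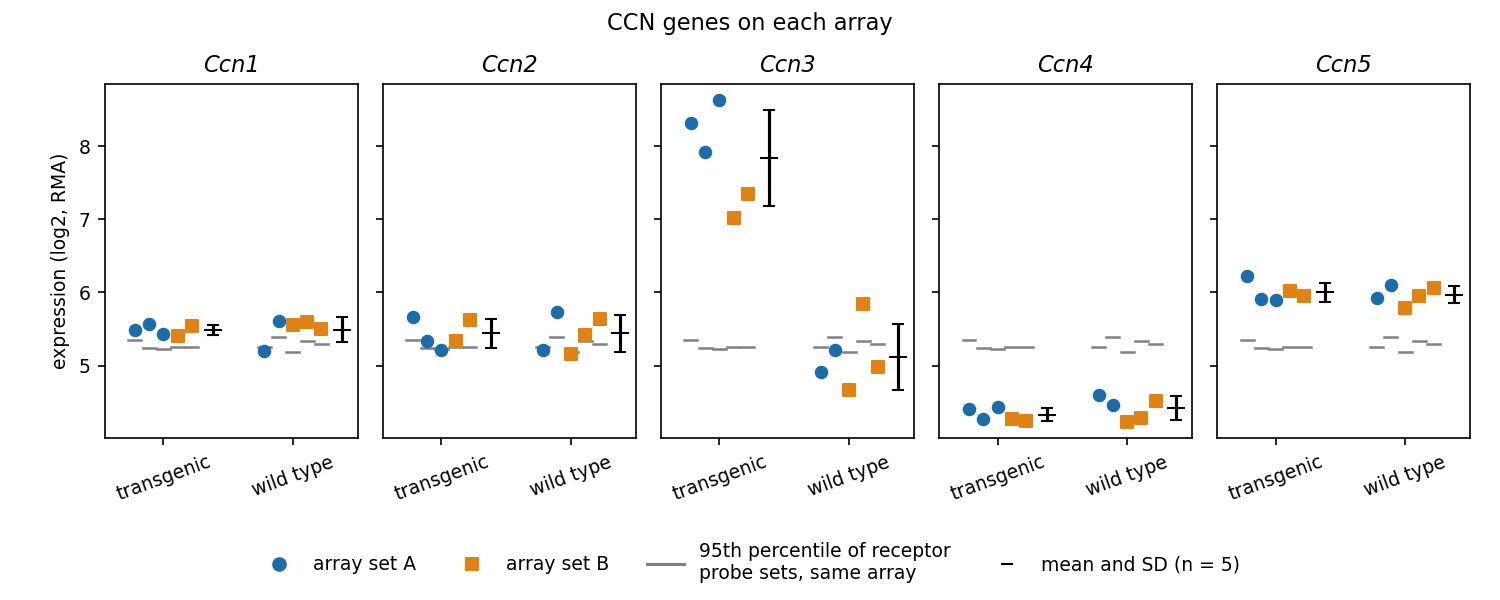
Log2 expression of the 5 CCN genes on each array, transgenic left and wild type right in each panel, with the mean and SD (n = 5) beside the points. Circles are arrays of set A and squares of set B, and grey dashes give the 95th percentile of the receptor probe sets on the same array. Ccn3 is above these dashes on 5 transgenic arrays and 1 wild-type array, and the groups of the other 4 genes overlap.

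Ccn1 and Ccn2, the family's best known growth-responsive genes, read alike in both groups. Ccn1, an angiogenic matrix protein of the immediate early class, read 5.48, 5.57, 5.43, 5.41 and 5.54 on transgenic arrays 1 to 5, against 5.20, 5.61, 5.55, 5.59 and 5.50 on wild-type arrays 1 to 5. Only wild-type array 1 lay below background, and the groups overlapped. The means were both 5.49, with an SD of 0.07 for transgenic and 0.17 for wild-type HSCs, and differed by -0.0035 log2 units (SE 0.09). Ccn2, connective tissue growth factor, a driver of fibrosis, read 5.67, 5.33, 5.22, 5.34 and 5.62 on the transgenic arrays, against 5.22, 5.73, 5.16, 5.42 and 5.64 on the wild-type arrays. It was just above background on 4 transgenic and 3 wild-type arrays. Its difference was -0.0015 (SE 0.13), and the wild-type arrays alone spanned the whole range of its values.

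Ccn4 and Ccn5 are also known as WISP genes, induced by Wnt1 in mouse mammary cells. Ccn4 was below background on all 10 arrays: it read 4.40, 4.27, 4.44, 4.27 and 4.24 on the transgenic arrays, against 4.60, 4.46, 4.23, 4.28 and 4.51 on the wild-type arrays. A difference in Ccn4 below this level was not detectable, and the measured one was -0.09 (SE 0.09). Ccn5 was above background on all 10 arrays, with 6.22, 5.91, 5.90, 6.02 and 5.95 on the transgenic arrays, against 5.92, 6.10, 5.79, 5.95 and 6.06 on the wild-type arrays. The groups overlapped and differed by 0.04 (SE 0.09).

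The 4 genes other than Ccn3 thus differed by -0.09 to 0.04, no more than the larger of their within-group SDs, which ran from 0.07 to 0.25. Within each array set their differences stayed between -0.16 and 0.09. Of the 5 members 1 had groups that did not overlap, where 1.47% of all tested probe sets had such groups. Ccn3 was also the 1 member among the 33 probe sets past limma's adjusted threshold of 0.05, which is 0.141% of those tested. Both counts rest on the values that chose the family, and nothing is read from them. The median difference was -0.0015 over the 5 members, the value of Ccn2, and -0.01 over all tested probe sets. Ccn6 read 6.33 ± 0.34 in transgenic HSCs and 6.37 ± 0.40 in wild-type HSCs (SD, n = 5 each) and was above background on all 10. Its difference of -0.04 (SE 0.21) was made of -0.49 within set A and 0.39 within set B.

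**Figure D2:**
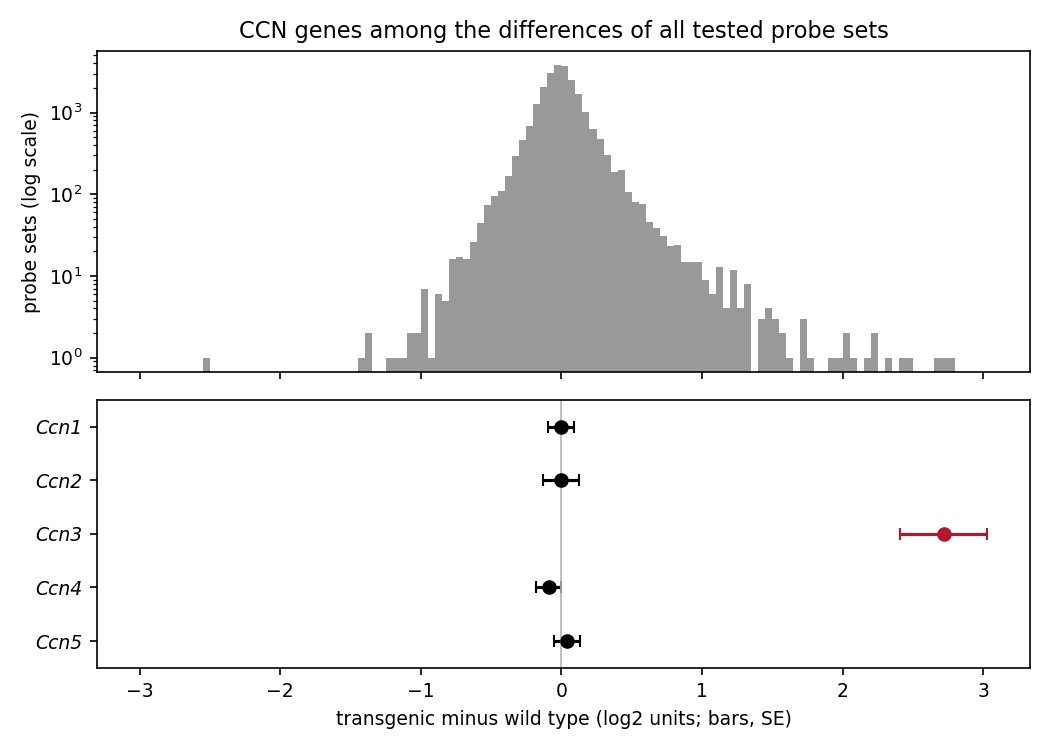
Upper panel, log2 differences (transgenic minus wild type) of all 23410 tested probe sets, with their number on a log axis. Lower panel, the differences of the 5 CCN genes with their SE on the same axis: Ccn3 lies at 2.72 and the other 4 between -0.09 and 0.04.

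The probe sets with the profile most like that of Ccn3 were found by the root mean square difference between mean-centred log2 values over the 10 arrays, which was 1.47 for the median one-gene probe set. Closest were Rasgrp3, an activator of Ras and Rap1 (0.485), the neural cell adhesion molecule Ncam2 (0.498), the lymphocyte GTPase Gimap4 (0.592) and Slfn2, a Schlafen protein of leukocyte quiescence (0.593). Then came the endothelial surface protein Ecscr (0.703), vascular endothelial cadherin, Cdh5 (0.722), the membrane metalloprotease Mmp16 (0.727), the interleukin-10 receptor chain Il10ra (0.731), the protease cathepsin H, Ctsh (0.740), and the matricellular protein Sparc (0.774). This choice favours genes with a large difference between the groups, so the lack of overlap in all 10 is no result. It also favours genes that follow Ccn3 across the transgenic arrays. A highest array or a larger set A difference shared with Ccn3 is therefore a description and no result either.

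The 10 neighbours differ in how far they share the order of the transgenic arrays. Array 3 was the highest transgenic array for Ccn3 and for 9 of them, all but Ecscr, which was highest on array 2. Rasgrp3 was nearly flat on the transgenic arrays, at 7.41, 7.33, 7.43, 7.31 and 7.11, against 4.77, 4.35, 4.74, 4.71 and 4.57 on the wild-type arrays. Ncam2 read 8.54, 7.51, 9.31, 7.92 and 7.84 on the transgenic arrays, against 5.52, 6.03, 6.03, 5.63 and 5.49 on the wild-type arrays. Cdh5 was high on transgenic arrays 1 and 3 only: it read 7.38, 5.86, 7.70, 5.58 and 5.85 on the transgenic arrays, against 4.58, 4.90, 4.94, 5.36 and 5.19 on the wild-type arrays. As for Ccn3, the log2 difference was larger within set A than within set B for Cdh5 (2.24 and 0.55), Ctsh (2.02 and 1.09), Slfn2 (2.33 and 1.47) and Sparc (1.82 and 1.12). The same held by less for Ncam2 (2.68 and 2.17), Mmp16 (1.81 and 1.42) and Rasgrp3 (2.83 and 2.54). It also held by less for Gimap4 (2.01 and 1.73) and Ecscr (1.74 and 1.55). For Il10ra the difference was larger within set B (2.29 and 2.37). Unlike for Ccn3, transgenic array 2 of set A read below 1 or both of the set B transgenic arrays for Ctsh, Slfn2 and Sparc. It also did for Ncam2, Gimap4, Mmp16 and Il10ra.

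**Figure D3:**
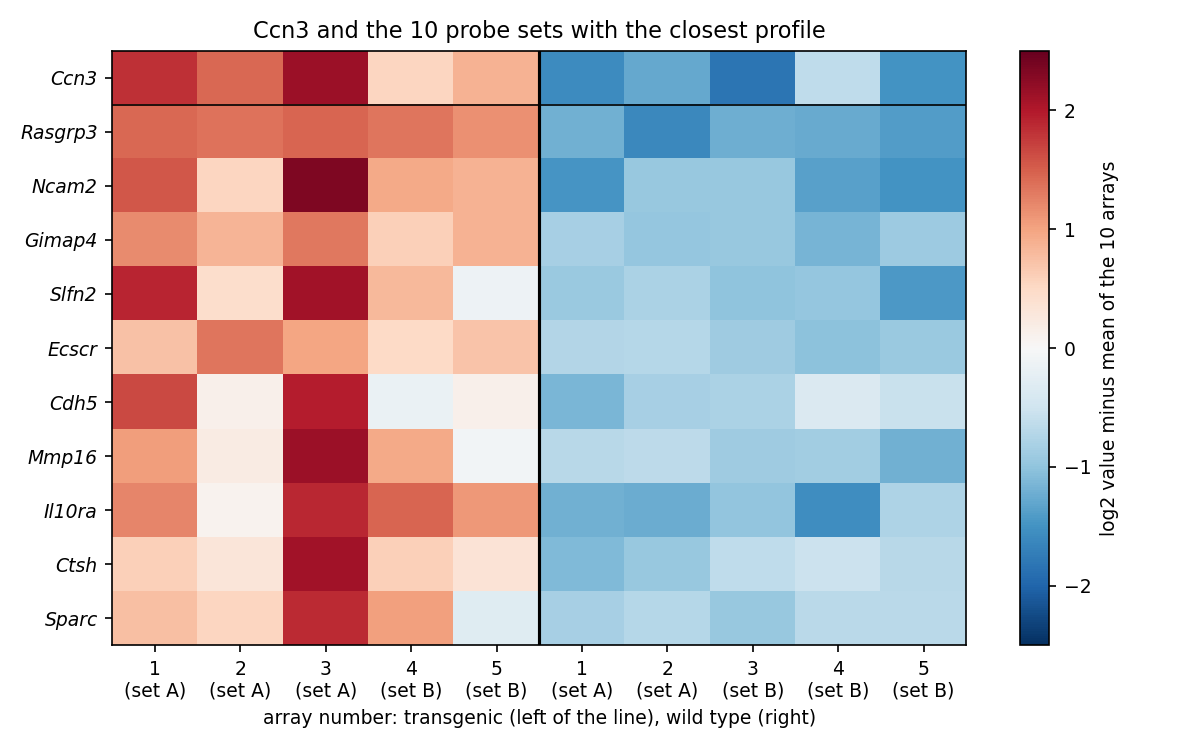
Log2 values minus each probe set's mean over the 10 arrays for Ccn3 (top row) and the 10 probe sets with the closest profile, transgenic arrays left of the line and wild-type arrays right. Transgenic array 3 is the highest for Ccn3 and for 9 of the 10 others, which the choice by profile favours.

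CCN genes are mostly known from stromal, bone and endothelial cells, so markers of these and of blood lineages were set beside Ccn3. Stromal and fibroblast markers overlapped between the groups: the mean log2 level of 10 genes was 4.59 to 4.74 in transgenic HSCs and 4.50 to 4.71 in wild-type HSCs, and Lum, Dcn, Pdgfra, Cxcl12, Lepr and Prrx1 were at background on all arrays. Of 5 measured osteoblast genes 4 were at background on all arrays, and the list read 4.48 to 4.80 in transgenic HSCs and 4.57 to 4.75 in wild-type HSCs. The endothelial list of 10 genes was higher, with 6.02 to 6.48 in transgenic HSCs and 5.78 to 6.0 in wild-type HSCs and no overlap. Of these 10 genes 3 had groups that did not overlap, where 1.47% of all tested probe sets had such groups. They were Cdh5 (1.48, SE 0.40), the adhesion molecule Pecam1 (0.68, SE 0.12) and the tight junction protein Cldn5 (0.44, SE 0.11), with limma adjusted p of 0.305, 0.0591 and 0.231. The junction protein Esam differed by 0.52 (SE 0.22) and the sialomucin Emcn by 0.41 (SE 0.22), with overlap. Tek differed by 0.19 (SE 0.19) and Stab2 by -0.02 (SE 0.07), also with overlap. Wild-type HSCs too read above background for Pecam1 (7.14), Tek (6.99), Emcn (8.20) and Esam (7.00), on every array. The receptors Kdr and Flt4 and the fenestral protein Plvap were at background on all 10 arrays. Within the transgenic arrays the mean endothelial level was 6.37 for set A and 6.14 for set B. The part of endothelial cells in the Ccn3 values was not tested. Genes of the marker lists are named here with their values known.

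Among blood lineages, the megakaryocyte and platelet list (8 genes) was lower without overlap, at 6.27 to 6.62 in transgenic HSCs and 6.79 to 7.36 in wild-type HSCs, and its gene Pf4 is 1 of the 5 probe sets that fell past the threshold (0.0214% of those tested). Vwf, von Willebrand factor, of the same list was higher without overlap, at 8.00 ± 0.55 in transgenic HSCs and 6.72 ± 0.33 in wild-type HSCs (SD, n = 5 each; 1.28, SE 0.25, limma adjusted p = 0.110). The other lists overlapped between the groups. Their mean differences were 0.41 for granulocyte, 0.17 for monocyte and macrophage, -0.15 for B cell, -0.08 for T and NK cell and -0.17 for erythroid. For the HSC genes, Cd48 and Procr among them, the mean difference was 0.25. Of the 8 monocyte and macrophage genes Csf1r and Adgre1 were at background on all arrays. Lyz2 (0.36, SE 0.12, no overlap) and Cd68 (0.56, SE 0.27, overlapping) were above background on all 10 arrays, with limma adjusted p of 0.455 and 0.777.

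Genes around the CCN proteins were read from 11 lists, 130 of 135 genes having a one-gene probe set. None passed limma's adjusted threshold of 0.05 in either direction, where 0.141% of all tested probe sets did. With an unadjusted p under 0.05 there were 17 of the 130 (13.1%), against 6.59% of all tested probe sets, and 3 of the 130 had groups that did not overlap (2.31%, against 1.47%). Their median difference was 0.04, against -0.01 over all. Once array set entered the limma model as a block, 3 of the 130 genes passed, Id2, Mrtfb and Skil. In that fit 91 of the 23410 tested probe sets passed, where 33 did without the block. The sets were drawn from the same values, so p-values of the fit with this block may be too small.

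Receptors for CCN proteins were measured above background for the most part. Of 9 integrin subunits that bind CCN proteins 7 were above background on all arrays, with 0 past the threshold and a median difference of 0.03. Itgb3, the beta subunit of the vitronectin receptor through which Ccn3 acts on mouse HSCs, read 7.11 ± 0.54 in transgenic HSCs and 6.52 ± 0.18 in wild-type HSCs (SD, n = 5 each; log2 difference 0.60, SE 0.23, limma adjusted p = 0.600). Itga2b, the platelet integrin subunit, read 6.30 ± 0.43 in transgenic HSCs and 7.08 ± 0.24 in wild-type HSCs (-0.78, SE 0.20, limma adjusted p = 0.245), and Itga5, of the fibronectin receptor, differed by 0.33 (SE 0.18). The platelet list, which holds Itga2b, was lower too. Among 8 other receptors and co-receptors, also with 0 past the threshold, Notch1 differed by 0.23 (SE 0.10), the Wnt co-receptor Lrp6 by 0.27 (SE 0.16) and the proteoglycan Sdc4 by 0.08 (SE 0.08). Their groups overlapped.

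The growth factors and matrix proteins that CCN modules bind had a median difference of 0.07 over 14 genes, with 0 past the threshold and 6 at background on all arrays. Bmp4, a bone morphogenetic protein, read 6.94 ± 0.55 in transgenic HSCs and 6.10 ± 0.26 in wild-type HSCs (SD, n = 5 each; 0.83, SE 0.24, limma adjusted p = 0.368). The adjusted p ran from 0.0422, without transgenic array 2, to 0.753 over the alternatives. Vegfa, the main angiogenic growth factor, differed by 0.43 (SE 0.14), and insulin-like growth factor 1, Igf1, by 0.46 (SE 0.20).

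The inputs that set Ccn1 and Ccn2 elsewhere showed no called change. Of 14 Hippo kinases, YAP and TAZ genes and TEAD factors 11 were above background on all arrays, 0 had an unadjusted p under 0.05, and the differences ran from -0.14 to 0.31. TAZ itself, Wwtr1, differed by -0.14 (SE 0.08), the TEAD cofactor Vgll4 by 0.31 (SE 0.24) and the Hippo scaffold Sav1 by 0.12 (SE 0.11). The 20 other genes of a human YAP target signature had a median difference of 0.02 with 0 past the threshold, 10 of them at background on all arrays. Crim1, a membrane protein with an IGF-binding-like module and von Willebrand C repeats as in the CCN proteins, differed by 0.69 (SE 0.20), the membrane repair protein Myof by 0.52 (SE 0.21) and the Arf regulator Asap1 by -0.31 (SE 0.13).

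Serum response factor, SRF, and its MRTF coactivators are the other classical route to Ccn1 and Ccn2. Of 12 such genes 0 passed the threshold, with a median of 0.03. Mrtfb read 8.45 ± 0.42 in transgenic HSCs and 7.50 ± 0.39 in wild-type HSCs (SD, n = 5 each; 0.95, SE 0.22, limma adjusted p = 0.207, and 0.0362 to 0.421 over the alternatives, lowest once array set was a block), and its other 2 probe sets differed by 1.01 and 1.02. Mrtfa differed by 0.30 (SE 0.10) and the actin-binding protein Cnn2 by 0.33 (SE 0.23).

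The TGF-beta list had the highest median difference of these 11 lists, 0.18 over 17 genes. Of the 17 genes 14 had a positive difference, against 46.3% of all tested probe sets. An unadjusted limma p under 0.05 was found for 5 of them, against 6.59% of all tested probe sets, and 0 were past the threshold. Id2, an inhibitor of basic helix-loop-helix factors and a BMP target, read 5.75 ± 0.30 in transgenic HSCs and 5.00 ± 0.17 in wild-type HSCs (SD, n = 5 each; 0.74, SE 0.14, limma adjusted p = 0.0986), and its groups did not overlap, at 5.39 to 6.08 in transgenic HSCs against 4.85 to 5.29 in wild-type HSCs. Id2 was above background on 6 of the 10 arrays. The SMAD corepressor Skil read 6.48 ± 0.43 in transgenic HSCs and 5.61 ± 0.12 in wild-type HSCs (0.88, SE 0.18, limma adjusted p = 0.121), also without overlap. Tgfbi, a matrix protein induced by TGF-beta, read 7.50 ± 0.65 in transgenic HSCs and 6.33 ± 0.16 in wild-type HSCs (1.17, SE 0.26, limma adjusted p = 0.167), with overlapping groups. These calls depended on the setting: Id2 and Skil passed with array set as a block on all 10 arrays (limma adjusted p = 0.0154 and 0.0469), Id2 and Tgfbi without transgenic array 2 (0.0389 and 0.00275), and Skil without transgenic array 4 (0.0497). Over all alternatives the adjusted p ran from 0.0154 to 0.348 for Id2, 0.0469 to 0.472 for Skil and 0.00275 to 0.764 for Tgfbi.

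**Figure D4:**
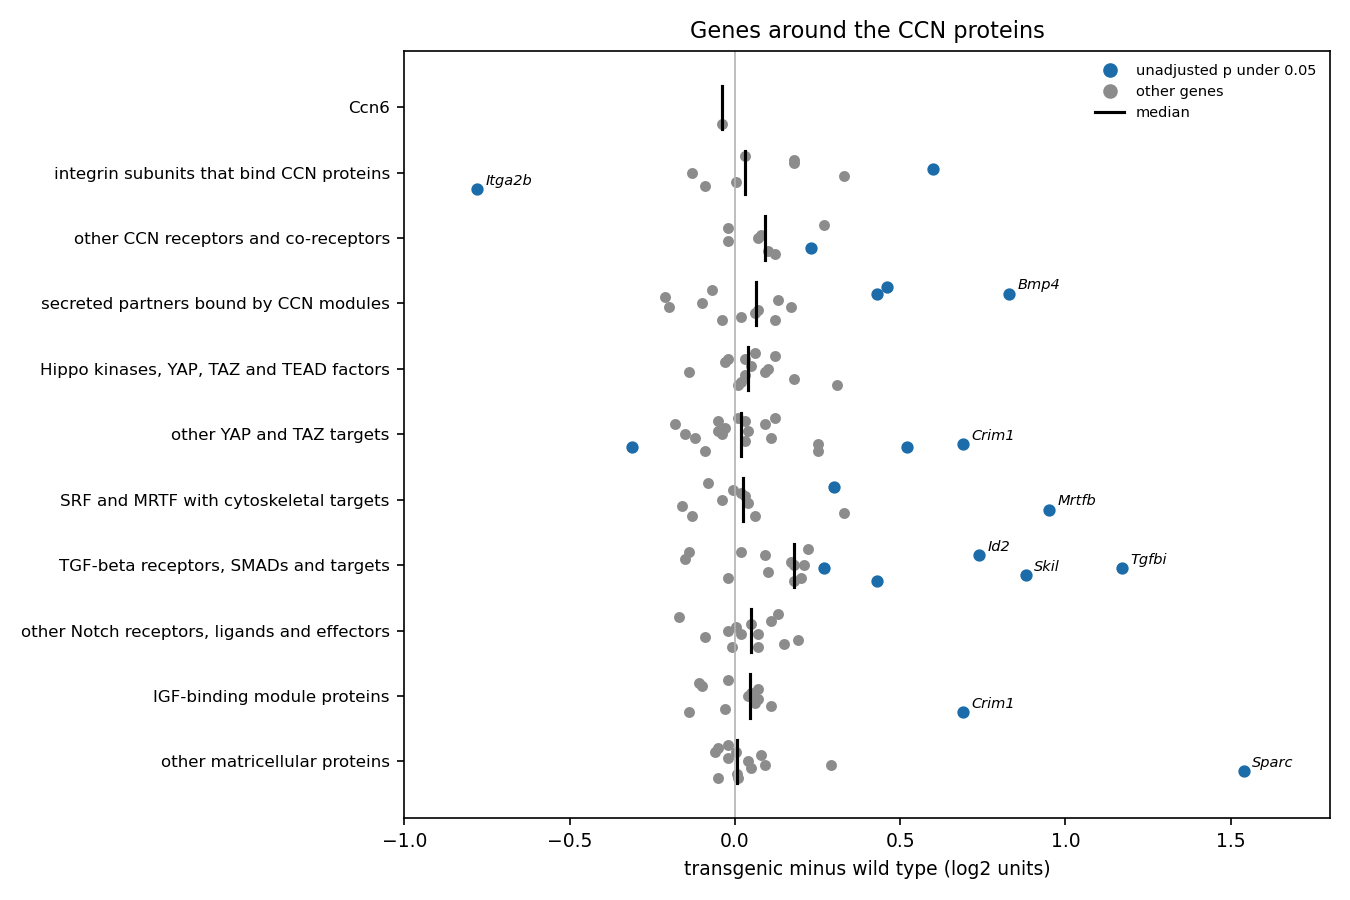
Log2 differences (transgenic minus wild type) of the 130 measured genes of the 11 lists, 1 point per gene and list, with the list's median as a black line. Blue points have an unadjusted p under 0.05 in limma, and 0 genes passed the adjusted threshold.

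Notch genes, listed because CCN3 binds Notch1, stayed close to 0. The 13 other Notch receptors, ligands and effectors differed by -0.17 to 0.19, with 0 of them at an unadjusted p under 0.05. The ligand Jag1 differed by 0.19 (SE 0.11) and the target Hes1 by 0.15 (SE 0.13), while Hey2, at -0.17 (SE 0.08), was at background on all arrays.

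Genes for proteins built like the CCN family, or placed like it, mostly read at background. Of 12 genes with an IGF-binding-like module 7 were at background on all arrays and 0 passed, Igfbp3 differing by 0.11 (SE 0.09) and the protease Htra1 by -0.10 (SE 0.10). Of 14 other matricellular genes 10 were at background on all arrays, the matrix glycoprotein Tnc (0.09, SE 0.09) among them, and Ecm1 differed by 0.29 (SE 0.18). Sparc, which binds collagen, was the exception in size: it read 6.91 ± 0.79 in transgenic HSCs and 5.37 ± 0.12 in wild-type HSCs (SD, n = 5 each; 1.54, SE 0.31, limma adjusted p = 0.115). The adjusted p ran from 0.0179, without transgenic array 5, to 0.675 over the alternatives. Its groups did not overlap, at 5.83 to 8.00 in transgenic HSCs against 5.19 to 5.47 in wild-type HSCs, and it is also among the 10 profiles closest to Ccn3.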

How the data were processed

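The authors deposited log2 expression values for each probe set and array, made with RMA per the submitters' processing notes, which also name affy and limma without versions. RMA subtracts background, equalises the arrays' distributions and summarises probes, so low values are compressed. Arrays give no read depth; their number limits precision. Of 35556 probe sets 21789 name 1 gene, 1621 several and 12146 none here. Entrez identifiers of 21698 were found in a RefSeq table of GRCm38.p6, with 0 symbols changed.

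The 23410 named probe sets were fitted with limma 3.58.1 in R 4.3.3 (lmFit, eBayes, two-sided, Benjamini-Hochberg, threshold 0.05), transgenic minus wild type, and the fit was tested on simulated data. A listed gene was read from its brightest one-gene probe set. The members, lists and tests were chosen with earlier results of these data known. Named list genes are those past the threshold and the 3 with the smallest p per list, and 10 probe sets with the profile closest to Ccn3. Replicate numbers were not used as pairs (see the closing section). Alternatives were the replicate number or array set as a block, fits within each set, quantile normalization, median centring, only brighter or all probe sets, a floor at the 20th percentile, an intensity trend, array weights, each array left out, the mean of a gene's probe sets and a threshold of 0.01.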

Additional observations from a re-analysis of the deposited data

Results flagged for a closer look

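In groups of 5 arrays, 1 array stood far from the other 4 in 4 of the 70 groups examined (35 genes in both genotypes), and chance gives about 1 in 20. Ccn1 was the 1 member concerned: wild-type array 1 read 5.20, against 5.50 to 5.61 on the other wild-type arrays. Itga5 read 5.56 on wild-type array 4, against 6.35 to 6.55. Vgll4 read 8.06 on wild-type array 1, against 7.02 to 7.32. Hey2, at background throughout, read 3.58 on wild-type array 4, against 3.26 to 3.34.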

How the results depend on the processing

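Ccn3 was past the adjusted threshold of 0.05 in 19 of the 22 alternatives. It was not with the replicate block, with the floor or within array set B. These calls rest on the values that chose the family, so nothing is read from their number. The Ccn3 difference kept its sign in all 22 alternatives. It moved by more than the spread between replicates in 1 of them, within array set B, where it was 2.02. Leaving out 1 array gave 2.53 to 2.93. The other members stayed within their spread: leaving out 1 array gave -0.08 to 0.03 for Ccn1, -0.07 to 0.07 for Ccn2, -0.14 to -0.04 for Ccn4 and -0.02 to 0.07 for Ccn5. The count of called probe sets, 33, became 91 with the array set as a block, 4 within set A, 6 within set B, 15 with all probe sets tested, 8 with the floor, 7 at a threshold of 0.01 and 15 to 71 with 1 array left out. The count of called list genes, 0, became 3 with the array set as a block and 0 to 3 with 1 array left out, without transgenic array 2 giving 3. The sign turned for Ccn6 within set B (0.39) and without transgenic array 1 or 2 or wild-type array 2 (leaving out 1 array gave -0.19 to 0.08) and for Htra1 within set A (0.10); the cause was not tested. Genes whose values all lay under the floor gave no value with it. As a check of pairing, the deviations of same-numbered arrays from their group means correlated at 0.24, 0.35, -0.14, 0.11 and 0.33 for numbers 1 to 5. Number 3, with the value below 0, joins an array of set A with an array of set B. The arrays of each other number lie in the same set, so this check cannot tell pairing from array set. The labels do not say whether the numbers mark a shared animal or day, and the numbers were not taken as pairs. With the replicate block the fit called 33 probe sets and 0 list genes passed. Ccn3 differed by 2.72 in that fit but was not among the 33.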
